A study of Arabidopsis thaliana with 6 samples.

Results

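*OSM34* (AT4G11650) and *DOX1* (AT3G01420) are stress-induced genes that had higher signals in *gis5* than in WT seedlings, and both were selected on that difference in measured signal. They are 2 genes, each with a single probe set, among the 22746 probe sets of the Affymetrix ATH1 array that are not controls. *OSM34* was named by the annotation of the array. *DOX1* was named only by the supplementary gene table of the study, which orders probe sets by the size of the difference between the genotypes and was held here in its first 1996 rows. The values that chose these genes are the *gis5* and WT signals themselves, so their difference is given as a description without a test.

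RNA of whole seedlings, leaves and roots together, was taken at 10 d of age from plants of the Columbia accession grown on MS plates under continuous light. The description of the series gives 23°C, and the methods give a slightly higher temperature. WT seedlings were compared with *gis5* seedlings, in which a point mutation alters the gene of the DNA polymerase δ catalytic subunit, with 3 biological replicates and 3 arrays for each genotype. The *gis5* line goes back to a single EMS allele, isolated as a suppressor of the late flowering *gi-2* mutant and backcrossed to WT 4 times. The arrays measure transcript levels and cannot show this base change.

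OSM34 belongs to the thaumatin-like proteins, a family that also holds the pathogenesis-related protein PR5. Its relative osmotin was found in tobacco cells adapted to salt, and proteins of this group can damage fungal membranes. Transcripts of osmotin-like genes accumulate under salt, dehydration and attack by pathogens. DOX1 is an alpha-dioxygenase, which adds oxygen to the alpha carbon of fatty acids and so starts a branch of oxylipin synthesis that is separate from the lipoxygenases and from jasmonate. *DOX1* is induced by bacterial infection, salicylic acid and reactive oxygen species, and its product limits oxidative damage and cell death in infected leaves.

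Signals are linear MAS5 values, which summarise the probes of a probe set, and the authors scaled them to a common trimmed mean. The median signal of an array lay between 174 and 191, and the correlation between any pair of arrays lay between 0.958 and 0.974 on the log2 scale. Photosynthetic leaf markers and root markers were both present, so the labelled tissue was found on all arrays. Of 10 leaf markers 2 had a named probe set (*LHCB4.1* and *RCA*), and their summed signal was 58366 to 61865 in *gis5* against 68432 to 78052 in WT. Of 10 root markers 3 had one (*EXPA7*, *TIP2;3* and *CASP1*), and their summed signal was 2133 to 2918 in *gis5* against 1535 to 2089 in WT. Of 10 seed storage and oil body markers 4 had one (*CRA1*, *CRU3*, *OLEO2* and *OLEO4*), with a summed signal of 281, 1276 and 743 on the *gis5* arrays 1, 2 and 3 and of 221 to 262 in WT. None of these summed levels overlapped between the genotypes. Gene by gene, all *gis5* arrays lay below all WT arrays for *LHCB4.1* and *RCA* and above them for *TIP2;3* and *CRU3*. The arrays of *EXPA7*, *CASP1*, *CRA1*, *OLEO2* and *OLEO4* overlapped between the genotypes. Among all probe sets tested, 9.13% were apart in this way with *gis5* higher and 6.79% with *gis5* lower. However, *TIP2;3*, *CASP1* and all 4 seed markers were named only by the supplementary gene table, which leads with large differences. Of the 851 probe sets named only in that way, 325 were apart with *gis5* higher and 157 with *gis5* lower. The higher root and seed levels in *gis5* are to be read beside these numbers. The part of tissue composition in the differences below was not tested. In RNA of whole seedlings, more cells that express a gene and more transcript per cell cannot be told apart.

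The signal of *OSM34* was 973, 1662 and 1466 in *gis5* replicates 1, 2 and 3 and 327, 353 and 553 in those of WT. All *gis5* arrays exceeded all WT arrays, and the nearest pair was *gis5* replicate 1 and WT replicate 3. The means were 1367 ± 355 (SD, n = 3) in *gis5* against 411 ± 124 (SD, n = 3) in WT, a ratio of 3.32. Taken array by array, the lowest of the *gis5* over WT ratios was 1.76 and the highest was 5.08. On the scale of log2(signal + 16), the log2 ratio was 1.70 (standard error 0.28), which placed *OSM34* at rank 39 by size and at rank 35 among the increases.

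The signal of *DOX1* was 1936, 1961 and 2096 in *gis5* replicates 1, 2 and 3 and 688, 715 and 925 in those of WT. The *gis5* arrays were close together and all above the WT arrays, of which replicate 3 was again the highest. The means were 1998 ± 86.1 (SD, n = 3) in *gis5* against 776 ± 130.0 (SD, n = 3) in WT, a ratio of 2.57, and the ratios taken array by array lay between 2.09 and 3.05. The log2 ratio was 1.36 (standard error 0.17), at rank 131 by size and at rank 102 among the increases. Over all probe sets tested, 9.13% had all *gis5* arrays above all WT arrays.

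**Figure D1:**
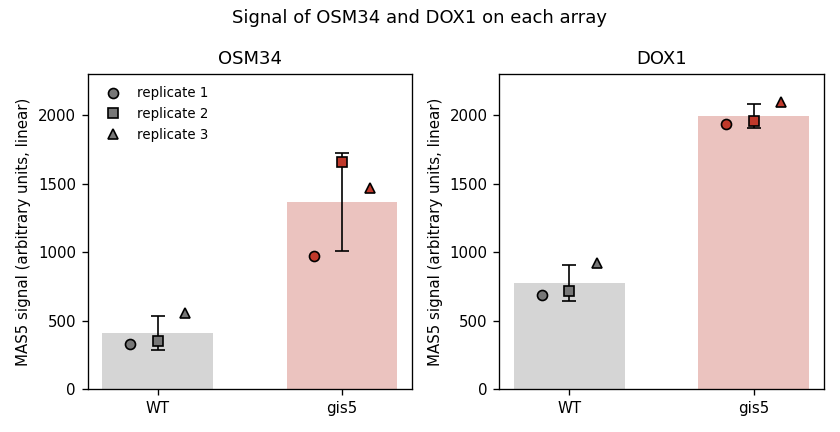
MAS5 signal (linear scale, arbitrary units) of *OSM34* and *DOX1* on the 3 WT and 3 *gis5* arrays, with each replicate as a point, the mean as a bar and the SD as an error bar. The *OSM34* arrays of *gis5* spread from 973 to 1662, while those of *DOX1* lie between 1936 and 2096, and in both genes WT replicate 3 is the highest WT array.

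The genes differed in how far replicates of a genotype lay apart. For *OSM34* the highest array was 1.71 times the lowest within *gis5* and 1.69 times the lowest within WT. For *DOX1* these ratios were 1.08 and 1.35. The SD within genotypes was 0.40 on the log2 scale for *OSM34* and 0.17 for *DOX1*, beside a median of 0.19 over the probe sets above the median signal. Of those probe sets, 3.74% had a larger SD than *OSM34* and 62.0% a larger SD than *DOX1*.

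Both genes had the same highest array in WT and the same lowest array in *gis5*. WT replicate 3 stood above the WT mean by 0.45 on the log2 scale for *OSM34* and by 0.26 for *DOX1*, and both other WT arrays were below the mean for both genes. In *gis5*, replicate 1 was the lowest array for both genes, at −0.45 from the *gis5* mean for *OSM34* and at −0.04 for *DOX1*. For *DOX1* replicate 2 was nearly as low, at −0.03, where *OSM34* was at 0.31. The *gis5* arrays of *OSM34* fell in the same order as the summed seed markers given above. Replicate 2 was the highest and replicate 1 the lowest, whereas *DOX1* was highest in replicate 3. Of the seed markers in *gis5*, *CRA1* and *CRU3* had the order of *OSM34*, while *OLEO2* was highest in replicate 3 and *OLEO4* in replicate 1. In WT the orders differed. The summed seed markers were 245, 262 and 221 in WT replicates 1, 2 and 3, so replicate 3 was the lowest, whereas *OSM34* was highest there. A link to seed transcripts was not tested. Without *gis5* replicate 2 the log2 ratio of *OSM34* was 1.54, and without WT replicate 3 those of *OSM34* and *DOX1* were 1.92 and 1.49.

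Profiles over the 6 arrays were compared by the root mean square difference of log2(signal + 16), each probe set being centred on its own mean, among 6524 probe sets above the median signal with a single named gene. A small difference mainly reflects a similar step between the genotypes, for which *OSM34* and *DOX1* were chosen. The profile nearest to that of *OSM34* was that of *DOX1*, at a difference of 0.29, where the median over all candidates was 0.92. Seen from *DOX1*, *OSM34* was in place 24.

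After *DOX1*, the profiles nearest to *OSM34* were those of *TCH3*, a calmodulin-like gene induced by touch, at 0.34, of the cell cycle inhibitor gene *SMR5* (AT1G07500) at 0.38, of the beta-glucosidase gene *BGLU7* at 0.39 and of the X-ray induced gene *XRI1* at 0.39. For *DOX1* the nearest was *TCH3* at 0.15, with a signal of 1739, 1936 and 1759 in *gis5* against 638, 748 and 704 in WT. It was followed by AT1G19960 at 0.18, by *SIAR1*, an amino acid transporter gene, at 0.18, by AT3G26460 at 0.22 and by *F6'H1* (AT3G13610), a gene of scopoletin synthesis, at 0.23. The WT means of *SMR5* (AT1G07500, 102), *BGLU7* (110) and AT3G26460 (182) lay under the median that candidates had to exceed in mean signal, so these were among the candidates only through their *gis5* signals (means of 358, 267 and 428), and their places are no more than a description. All of these had a higher mean in *gis5*, with log2 ratios from 1.02 for *F6'H1* to 1.73 for *XRI1*. All 5 entries for *OSM34* and 2 of the 5 for *DOX1* were named only through the supplementary gene table, as were 573 of the candidates.

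**Figure D2:**
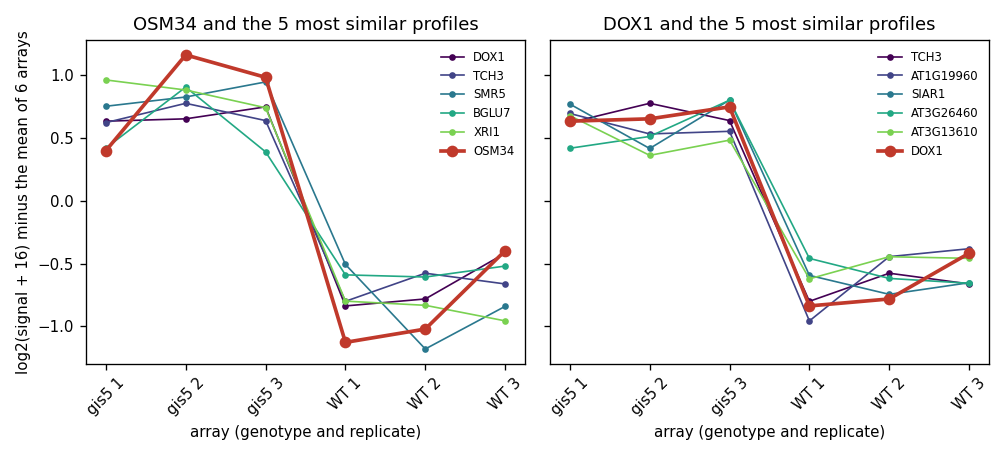
Profiles of *OSM34* (left, red) and *DOX1* (right, red) with the 5 probe sets of the smallest root mean square difference each; the vertical axis is log2(signal + 16) minus the mean of the 6 arrays and the horizontal axis gives genotype and replicate. The step between the genotypes is shared by all profiles, and *OSM34* spreads more within each genotype than *DOX1*.

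The relatives of *OSM34* had smaller differences between the genotypes. As *OSM34* was chosen for its difference, this is a description and no test. Of 23 other thaumatin-like genes, assigned from general knowledge of the family, 19 had a named probe set, all of them named by the annotation of the array and so independently of their difference. Each probe set was tested with limma on log2(signal + 16), and adjusted p-values are Benjamini-Hochberg values over all 22746. In this test 2 of the 19 were higher in *gis5* at an unadjusted p under 0.05, none was lower and 17 did not pass, where over all probe sets tested 5.99% were higher and 3.06% lower at this threshold. None had an adjusted p under 0.05, and over all probe sets 1 did (0.00440%). Their log2 ratios lay between −0.47 and 0.94 with a median of 0.03, beside 0.03 over all probe sets and 1.70 for *OSM34*. When 1 array was left out, a single relative was higher at this threshold, except without WT replicate 1, where 2 were, and without WT replicate 2 there was also 1 lower.

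The higher ones were AT1G77700, with a signal of 139 ± 5.76 (SD, n = 3) in *gis5* against 91.3 ± 20.2 in WT (log2 ratio 0.55, adjusted p = 0.46), and AT4G36000, with 24.9 ± 11.1 and 7.39 ± 9.21 (log2 ratio 0.83, adjusted p = 0.53). AT4G36000 is dim on all arrays, and 1 of its *gis5* arrays (12.2) was below the highest WT array (18.0). The highest log2 ratio among the relatives, 0.94 for AT5G02140, had a standard error of 0.48 and did not pass (adjusted p = 0.62). The log2 ratios of the relatives above the median signal lay between −0.27 for AT1G75800 and 0.26 for AT1G73620. AT1G75800 averaged 1102 ± 5.69 in *gis5* against 1335 ± 120 in WT (adjusted p = 0.64), and each of its *gis5* arrays was below each WT array, as in 6.79% of all probe sets tested. AT1G73620 averaged 561 ± 94.6 and 462 ± 40.2 (adjusted p = 0.72), with arrays that overlapped between the genotypes. *ATLP-1* (AT1G18250) averaged 1157 ± 341 in *gis5* against 996 ± 200 in WT, AT2G28790 averaged 1656 ± 176 and 1634 ± 475, and AT4G38660 averaged 1034 ± 26.0 and 1050.5 ± 171. The log2 ratios of the latter 3 were 0.19, 0.05 and −0.01. *PR5*, the best known relative, was not analysed here.

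The other genes of the fatty acid oxygenation list that could be read went both ways. Of 22 other genes of this list, 6 had a named probe set, each named only by the supplementary gene table. In limma 1 was higher at an unadjusted p under 0.05, 2 were lower and 3 did not pass, with a median log2 ratio of −0.16. Among all 851 probe sets named only in this way, 30.8% were higher and 14.0% lower at this threshold, since that table leads with large differences. None of the 6 had an adjusted p under 0.05.

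The closest relative, *DOX2* (AT1G73680), the other alpha-dioxygenase gene of the list, read 336, 235 and 196 in *gis5* against 173, 245 and 225 in WT. Its arrays overlapped between the genotypes, with a difference of 0.22 on the log2 scale (standard error 0.24, adjusted p = 0.82). *LOX1* (AT1G55020), a 9-lipoxygenase gene, read 1130, 648 and 997 in *gis5* against 506, 571 and 572 in WT. Every *gis5* array of *LOX1* was above every WT array, as in 9.13% of all probe sets tested. This held for 325 of the 851 named only by the supplementary gene table. The log2 ratio of *LOX1* was 0.70 (standard error 0.23, adjusted p = 0.46). *LOX1* no longer passed the unadjusted threshold without *gis5* replicate 1, *gis5* replicate 3 or WT replicate 1.

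The genes of the list that passed with a lower signal were *LOX2* and *FAD2*, and the step of *FAD2* adds no oxygen. *LOX2* (AT3G45140), the chloroplast 13-lipoxygenase of jasmonate synthesis, read 1912, 1198 and 1313 in *gis5* against 2338, 3371 and 3591 in WT, so that the log2 ratio was −1.07 (standard error 0.25, adjusted p = 0.29). *FAD2* (AT3G12120), which makes linoleate from oleate, averaged 10173 ± 1102 in *gis5* against 16725 ± 1204 in WT, so that the log2 ratio was −0.72 (standard error 0.16, adjusted p = 0.25). Both had every *gis5* array below every WT array, as did 6.79% of all probe sets tested. Of the 851 probe sets named only by the supplementary gene table, 157 did so. *AOS*, which takes 13-lipoxygenase products towards jasmonate, stood at −0.54 on the log2 scale (adjusted p = 0.61) and *AOC3* at 0.24 (adjusted p = 0.86), and in both the arrays of the genotypes overlapped.

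**Figure D3:**
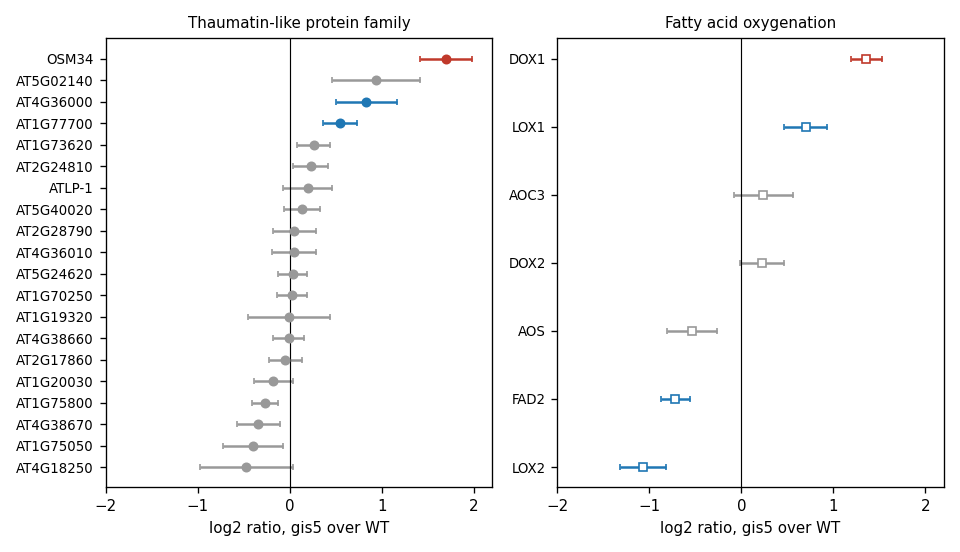
Log2 ratio of *gis5* over WT (points) with its standard error (bars) for thaumatin-like genes and genes of fatty acid oxygenation. Red marks *OSM34* and *DOX1*, blue an unadjusted p under 0.05 and grey the rest; filled circles were named by the annotation of the array and open squares only by the supplementary gene table. *OSM34* at 1.70 and *DOX1* at 1.36, both chosen for their difference, lie above all other genes of their panels.

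Reactive oxygen is a signal that also induces *DOX1*. Of 17 genes of the response to it 5 could be read, of which 4 were higher in *gis5* at an unadjusted p under 0.05, none was lower, and the median log2 ratio was 1.03. None of the 5 had an adjusted p under 0.05. Both members named by the array annotation were among the 4, where 5.77% of all probe sets named in that way were higher and 2.97% lower. The other 3 (*OXI1*, *ZAT12* and *FSD1*) were named only by the supplementary gene table, where 30.8% were higher. *ZAT10* (AT1G27730), a zinc finger gene of stress signalling, read 271, 233 and 277 in *gis5* against 122, 89.2 and 112 in WT. This is 1.16 on the log2 scale (standard error 0.17), with an adjusted p of 0.11 from limma.

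AT2G21640, the other of these, read 178, 239 and 173 in *gis5* against 59.5, 80.7 and 36.4 in WT, so that the log2 ratio was 1.54 (standard error 0.26, adjusted p = 0.16). The kinase gene *OXI1* (AT3G25250), which acts in oxidative signalling, stood at 1.03 on the log2 scale (adjusted p = 0.24) and *ZAT12* (AT5G59820), a zinc finger gene of oxidative stress, at 0.52 (adjusted p = 0.41). In these 4 genes the lowest *gis5* array exceeded the highest WT array, as it did for 9.13% of all probe sets tested. Of the 851 probe sets named only by the supplementary gene table, as *OXI1* and *ZAT12* were, 325 had this. The superoxide dismutase gene *FSD1* had 0.22 (adjusted p = 0.72), and the catalase and ascorbate peroxidase genes of the list were not analysed here. The mean signals of the 4 lie under the median signal, so no member passed where only brighter probe sets were tested.

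Genes of osmotic stress and abscisic acid response had log2 ratios between −0.43 and 0.84. Of 26 genes 8 had a named probe set, of which 4 were higher at an unadjusted p under 0.05, 1 was lower and 3 did not pass, with a median log2 ratio of 0.42. Over all probe sets 5.99% were higher and 3.06% lower. Of the 4 named by the array annotation 1, *COR15A*, was higher, and the other 3 higher members were named only by the supplementary gene table, where 30.8% of probe sets were higher and 14.0% lower. The dehydrin gene *ERD14* (AT1G76180) averaged 4639 ± 268 (SD, n = 3) in *gis5* against 3065 ± 308 in WT, so that the log2 ratio was 0.60 (adjusted p = 0.32). The proline dehydrogenase gene *ERD5* had 0.60 (adjusted p = 0.47) and the cold-induced *COR15A* 0.84 (adjusted p = 0.48). *RD20*, a caleosin gene induced by drought, was the member with a lower signal, at −0.43 (adjusted p = 0.49). The number of higher members was 1 without *gis5* replicate 1 or WT replicate 1 and 2 without *gis5* replicate 3, WT replicate 2 or WT replicate 3, and *RD20* did not pass without *gis5* replicate 1, *gis5* replicate 2, WT replicate 1 or WT replicate 3. The marker genes *RD29A* and *RAB18* were not analysed here.

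Genes of pathogenesis-related proteins went both ways. Of 19 genes 12 had a named probe set, 2 were higher at an unadjusted p under 0.05, 2 were lower and 8 did not pass, with a median log2 ratio of 0.15, beside 5.99% higher and 3.06% lower over all probe sets. *PR2* (AT3G57260), a beta-glucanase gene of the salicylic acid response, read 40.5, 59.8 and 57.8 in *gis5* against 21.4, 4.17 and 7.79 in WT, so that the log2 ratio was 1.38 (standard error 0.27, adjusted p = 0.21). *PR2* was dim, with each signal below the median of its array. The chitinase gene *EP3* had 0.93 (adjusted p = 0.55), and its arrays overlapped, with a *gis5* array at 275 and a WT array at 313. Both *PR2* and *EP3* were named only by the supplementary gene table, as were 5 of the 12, where 30.8% of probe sets were higher. The defensin genes *PDF1.2A* and *PDF1.2B*, which respond to jasmonate and ethylene, had lower signals, at log2 ratios of −1.25 (adjusted p = 0.50) and −1.40 (adjusted p = 0.45). Every *gis5* array of these was below every WT array, as in 6.79% of all probe sets tested, and as close paralogs they may share signal. Without *gis5* replicate 1 no lower member passed, and without *gis5* replicate 2 or WT replicate 2 a single lower member did. For the higher members the number was 1 without *gis5* replicate 3, WT replicate 1 or WT replicate 3. *PR1* was not analysed here.

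Of 13 leaf senescence genes 5 had a named probe set, with 1 higher and 1 lower at an unadjusted p under 0.05, beside 5.99% and 3.06% over all probe sets. *SAG101*, a lipase-like gene of senescence and defence, was at 0.54 on the log2 scale (adjusted p = 0.52) and *SEN1*, which is induced by darkness, at −1.27 (adjusted p = 0.45). *SEN1* was named only by the supplementary gene table, where 14.0% of probe sets were lower. *SAG101* did not pass without *gis5* replicate 2, WT replicate 2 or WT replicate 3, and *SEN1* did not pass without *gis5* replicate 1 or WT replicate 3. *SAG12* and *SAG13* were not analysed here. No member of any of these lists had an adjusted p under 0.05.

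**Figure D4:**
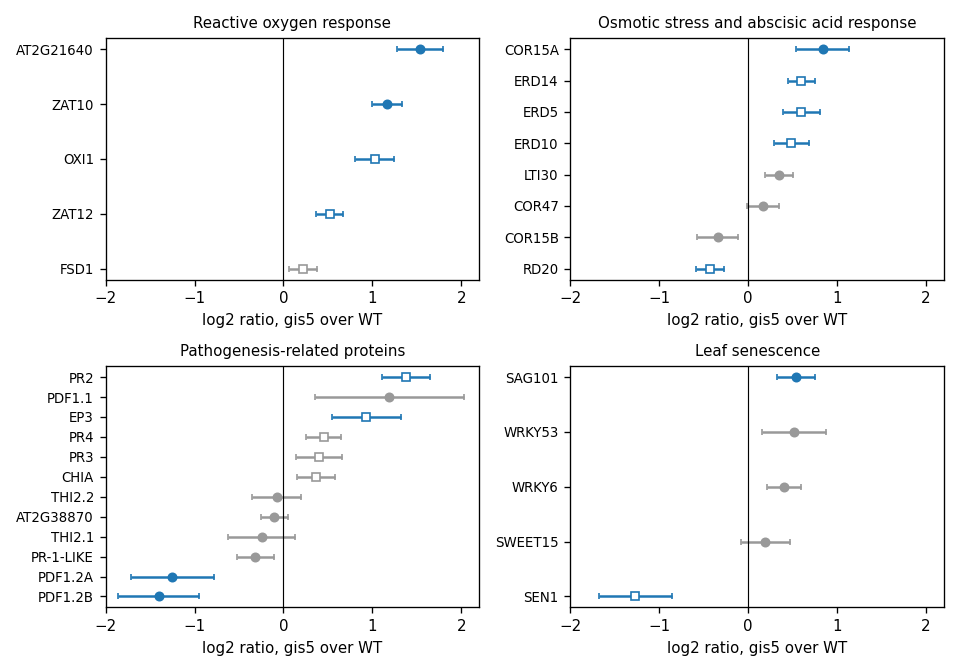
Log2 ratio of *gis5* over WT (points) with its standard error (bars) for the measured genes of the response to reactive oxygen, of osmotic stress and abscisic acid, of pathogenesis-related proteins and of leaf senescence. Blue marks an unadjusted p under 0.05 and grey the rest, filled circles were named by the annotation of the array and open squares only by the supplementary gene table; 4 of the 5 genes of the reactive oxygen panel are blue with positive ratios.

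The measured genes beside *OSM34* and *DOX1* on the chromosome had log2 ratios near 0. Of the 5 protein-coding genes on either side of *OSM34* in the RefSeq order, 4 in all had a named probe set, and their log2 ratios lay between −0.23 and 0.09. The nearest of these, the serine racemase gene *SR* (AT4G11640) next to *OSM34*, read 279, 221 and 236 in *gis5* against 296, 244 and 212 in WT. Of the genes around *DOX1* 4 had a named probe set as well, with log2 ratios between −0.18 and 0.15. AT3G01430, next to *DOX1*, read 121, 135 and 103 in *gis5* against 154, 126 and 131 in WT. None of the 8 neighbours passed an unadjusted p of 0.05 in limma, and for none were the arrays of the genotypes apart. Over all probe sets 5.99% were higher and 3.06% lower at this threshold, and 9.13% and 6.79% had all *gis5* arrays above or below all WT arrays, so among 8 genes a count of 0 is near the background.

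**Figure D5:**
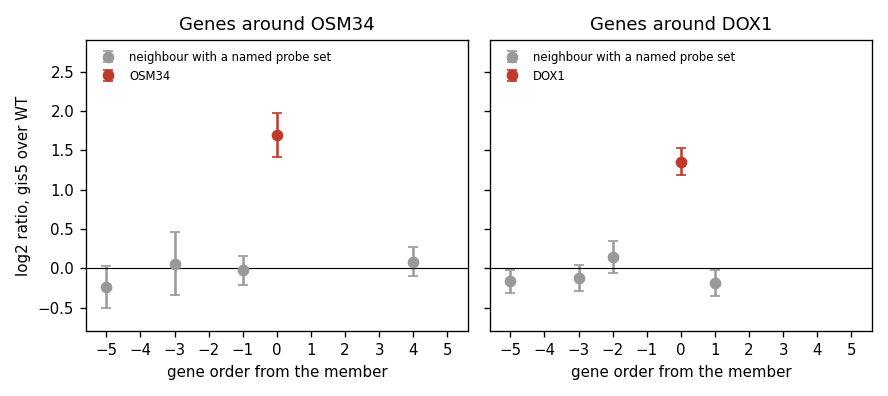
Log2 ratio of *gis5* over WT with its standard error for *OSM34* and *DOX1* (red, at 0) and for the measured protein-coding genes among the 5 on either side (grey), ordered by gene. The 8 measured neighbours lie between −0.23 and 0.15.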

How the data were processed

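The authors hybridised RNA of 3 *gis5* and 3 WT seedling samples to ATH1 arrays and deposited a linear signal intensity per probe set, for which the labels name MAS5 without a version. The paper's own list used RMA, whose values were not used here, and raw array files and detection calls were not analysed here. The deposited intensities were taken as log2(signal + 16) without rescaling, which understates changes of dim probe sets. The 22746 probe sets that are not controls were fitted with limma 3.58.1 in R 4.3.3 (lmFit and eBayes, genotype as the only term, Benjamini-Hochberg adjustment over all), and the fit was tested on simulated data. The p-values set the difference between the genotypes against the spread between these samples, which limma moderates over all probe sets. The labels call the replicates biological without naming separate cultures, so the p-values may not cover the spread between separate cultures. The number of arrays limits the precision.

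Probe sets were named through the array annotation with the TAIR10.1 RefSeq table (13436, and 77 by symbol alone) or, failing that, the supplementary gene table (851); 503 match several genes and 7879 are unnamed here. A gene was counted by its brightest probe set, and *OSM34* and *DOX1* were left out of list counts. The genes, lists and tests were chosen with earlier results of these data known. The rule for named genes allowed any measured relative of either gene to be named, and took up to 4 members of each other list with the smallest p, well-known list members and the 5 nearest profiles; neighbours, *FSD1* and the marker genes were added. Correlations of same-numbered arrays in their deviations from the genotype means were −0.06, −0.00028 and −0.04, so the numbers were not treated as pairs. No sequence was used here.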

Additional observations from a re-analysis of the deposited data

How the results depend on the processing

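The log2 ratios of *OSM34* and *DOX1* moved by less than the SD between replicates under all 11 alternatives. Leaving out 1 array gave 1.54 to 1.92 for *OSM34* and 1.28 to 1.49 for *DOX1*, and quantile normalization, centring, pseudocounts of 1 and 64 and the replicate block gave 1.59 to 1.74 and 1.29 to 1.37. The replicate block left the ratios at 1.70 and 1.36, with standard errors of 0.23 and 0.18.

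Counts of list members at an unadjusted p under 0.05 are small, so that a single gene can move the smallest of them by over 1.5 times. Higher thaumatin-like genes went from 2 to 1 with centred arrays, either pseudocount, the replicate block or the trended and robust variance, and to 0 among probe sets above the median signal or at the thresholds of the methods; without 1 array they were 1 to 2, and lower ones 0 to 1. Higher genes of fatty acid oxygenation went from 1 to 0 and lower ones from 2 to 1 at the thresholds of the methods; without 1 array the higher ones were 0 to 1 and the lower ones 2 to 3. Higher pathogenesis-related genes went from 2 to 1 with centred arrays, a pseudocount of 1, the replicate block or the thresholds of the methods and to 0 with members named by the annotation alone; lower ones went from 2 to 1 with a pseudocount of 1 or without _s_at and _x_at probe sets; without 1 array these were 1 to 3 and 0 to 2. Higher osmotic stress genes went from 4 to 1 with members named by the annotation and to 0 at the thresholds of the methods; the lower one was lost (0) under the replicate block, the filter on signal, the trended and robust variance, the naming and the thresholds of the methods; without 1 array they were 1 to 4 and 0 to 1. Higher reactive oxygen genes went from 4 to 2 by naming and to 0 by the filter on signal, and stayed at 4 without any 1 array. The higher senescence gene was lost (0) with quantile normalization, centred arrays, the replicate block, the filter on signal, the trended and robust variance and the thresholds of the methods, and the lower one (0) by naming; without 1 array each was 0 to 1. At an adjusted p under 0.05 all of these counts were 0. No fatty acid oxygenation gene was named by the annotation, so that setting gave no value there. The causes were not tested, except that the filter and the naming leave fewer genes. Centring moved the median of all log2 ratios from 0.03 to −0.04.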
